A study of Mus musculus with 4 samples.

Results

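The 10 genes described here, known from many tissues as targets of the FoxO transcription factors in growth arrest and stress defence, were followed across 4 pooled libraries of mouse pancreatic islets. They are the CDK inhibitor genes Cdkn1a and Cdkn1b, the cyclin gene Ccng2, the sestrin genes Sesn1 and Sesn3, the DNA damage response gene Gadd45a, the transcriptional regulator genes Bcl6 and Cited2, and the mitochondrial quality control genes Bnip3 and Pink1. The members were taken by gene symbol, and each of the 10 was found in 1 row of every library, with an FPKM of status OK, among 23235 gene symbols in all. FPKM is a fragment count scaled to the length of the transcript and the size of the library, so that levels can be compared between genes. All 10 also passed the filter on low values, which asked for an FPKM averaging 1 or more and left 11953 genes to be tested.

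RNA was sequenced after poly-A selection from islets, the hormone-secreting cell clusters of the pancreas, of C57BL/6 mice. The 4 groups were refed KR, fasted KR, refed WT and fasted WT, where WT is wild type and KR is labelled a mutant; outside the labels, KR stands for a Foxo1 allele in which arginine takes the place of acetylated lysines. The extraction protocol names 3 WT and 3 KR mice whose islets were combined, without saying whether that holds for each feeding state, and each group is 1 library with no replicate. By the treatment labels, fasted mice went 48 h without food and refed mice had 6 h of food after that, while the extraction protocol gives a fast of 24 h. The deposited bounds imply sequencing depths, relative to fasted WT at 1, of 0.418 in refed KR, 1.01 in fasted KR and 0.683 in refed WT, so the refed libraries were the shallower ones in both genotypes.

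FoxO factors are held out of the nucleus by insulin signalling through the kinase AKT and enter it when insulin is low or under stress. There they are known to bind a short forkhead element in DNA and to switch on genes that stop the cell cycle, detoxify oxidants, slow growth signalling through mTOR and remove damaged mitochondria. Acetylation of FoxO1 is known to alter its DNA binding and turnover, and in beta cells FoxO1 is known as a regulator of the response to metabolic stress. The libraries measured transcript levels and not FoxO1 binding, so whether a gene is a FoxO1 target in these islets was not measured.

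The sequence around the start of 4 members is printed because these moved most between feeding states among the better measured members: Sesn1, Ccng2 and Cdkn1a, which were higher in refed islets, and Gadd45a, which was lower. Each run covers 250 bases before and 50 from the start of the gene, from RefSeq on build GRCm38.p6, written 5′ to 3′ on the strand of the gene, and for Sesn1 and Cdkn1a, which have 2 starts each, the upstream one. Capitals mark the matches to 5 motifs that were searched on both strands: the forkhead core GTAAACA, the insulin response core CAAAACA, the E-box CACGTG, the octamer ATGCAAAT and the consensus p53 decamer.
Sesn1, chr10:41810324-41810623, plus strand: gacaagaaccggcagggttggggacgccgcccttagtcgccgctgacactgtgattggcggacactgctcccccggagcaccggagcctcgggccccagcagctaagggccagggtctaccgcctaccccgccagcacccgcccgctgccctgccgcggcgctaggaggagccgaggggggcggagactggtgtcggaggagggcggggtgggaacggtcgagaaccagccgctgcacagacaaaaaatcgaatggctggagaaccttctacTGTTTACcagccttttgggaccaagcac
Ccng2, chr5:93267323-93267622, plus strand: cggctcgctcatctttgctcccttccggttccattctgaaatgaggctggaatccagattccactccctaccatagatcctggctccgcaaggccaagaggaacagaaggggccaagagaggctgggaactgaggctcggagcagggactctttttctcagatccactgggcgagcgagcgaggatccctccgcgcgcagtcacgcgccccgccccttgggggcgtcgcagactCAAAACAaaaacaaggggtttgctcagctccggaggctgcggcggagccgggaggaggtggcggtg
Cdkn1a, chr17:29090729-29091028, plus strand: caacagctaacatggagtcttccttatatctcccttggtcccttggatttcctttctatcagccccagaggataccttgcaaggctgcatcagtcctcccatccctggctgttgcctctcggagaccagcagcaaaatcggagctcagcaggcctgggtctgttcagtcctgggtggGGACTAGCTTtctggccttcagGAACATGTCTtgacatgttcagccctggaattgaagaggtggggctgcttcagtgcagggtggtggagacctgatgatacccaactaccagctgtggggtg
Gadd45a, chr6:67037358-67037657, minus strand: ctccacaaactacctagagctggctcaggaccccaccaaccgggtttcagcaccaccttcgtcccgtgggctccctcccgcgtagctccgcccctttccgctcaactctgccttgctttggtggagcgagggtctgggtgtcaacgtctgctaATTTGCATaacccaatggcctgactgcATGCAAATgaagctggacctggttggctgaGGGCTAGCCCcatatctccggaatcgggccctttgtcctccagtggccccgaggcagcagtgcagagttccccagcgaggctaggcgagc

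Sesn1 carries the forkhead core, read on the other strand, from base 23 after its start, and Ccng2 carries the insulin response core from base -16 before it. Cdkn1a holds p53 decamers from bases -73 and -51, and Gadd45a holds octamers from bases -97 and -70 and a p53 decamer from base -40. None of the marked matches overlapped another in these 4 runs. Of the 13 windows of the 10 members, 1 held the forkhead core, against 3.65% of all 32851 RefSeq windows of this length, and 1 held the insulin response core, against 6.28%. The E-box stood in 3 member windows, those of Bnip3, Cited2 and 1 start of Bcl6, against 7.15% of all windows. The octamer stood in 2, those of Gadd45a and Sesn3, against 1.74%, and the p53 decamer in 3, those of Cdkn1a, Gadd45a and the downstream start of Sesn1, against 8.36%. The motifs were chosen after the sequences were seen, and a match describes these letters only.

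Levels are given first. Bnip3, a mitophagy receptor of the BCL-2 family, was the most abundant member in both KR libraries, with an FPKM of 71.2 in refed KR and 63.1 in fasted KR, against 70.4 in refed WT and 58.3 in fasted WT. Pink1, a kinase that marks damaged mitochondria for removal, followed closely at 65.0 in refed KR and 60.4 in fasted KR, with 70.6 in refed WT and 58.7 in fasted WT. The deposited bounds of Bnip3 and Pink1 overlapped in every library, so their order is not resolved. In refed WT the highest member was Cdkn1a, at 77.3, whose bounds lay above those of Pink1. In fasted WT Gadd45a, Pink1, Bnip3 and Cdkn1b stood between 58.3 and 61.2, each overlapping its neighbour.

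Cited2, Sesn3, Sesn1 and Ccng2 formed a middle group, at FPKM values between 11.3 and 35.9. Bcl6 was by far the lowest, at 4.79 or less in each library, and rested on 66 fragments implied by its bounds in refed KR and 318 in fasted KR, and on 101 in refed WT and 385 in fasted WT. Every other member had at least 312 implied fragments in each library. The lowest of these was Gadd45a in refed KR. In WT Gadd45a was the sixth member by level when refed and the first when fasted, and in KR the fifth when refed and the fourth when fasted. Its bounds overlapped those of Sesn3 and Cited2 in both refed libraries, so its refed ranks are not resolved. Nor is its first place in fasted WT, where its bounds overlapped those of Pink1.

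**Figure D1:**
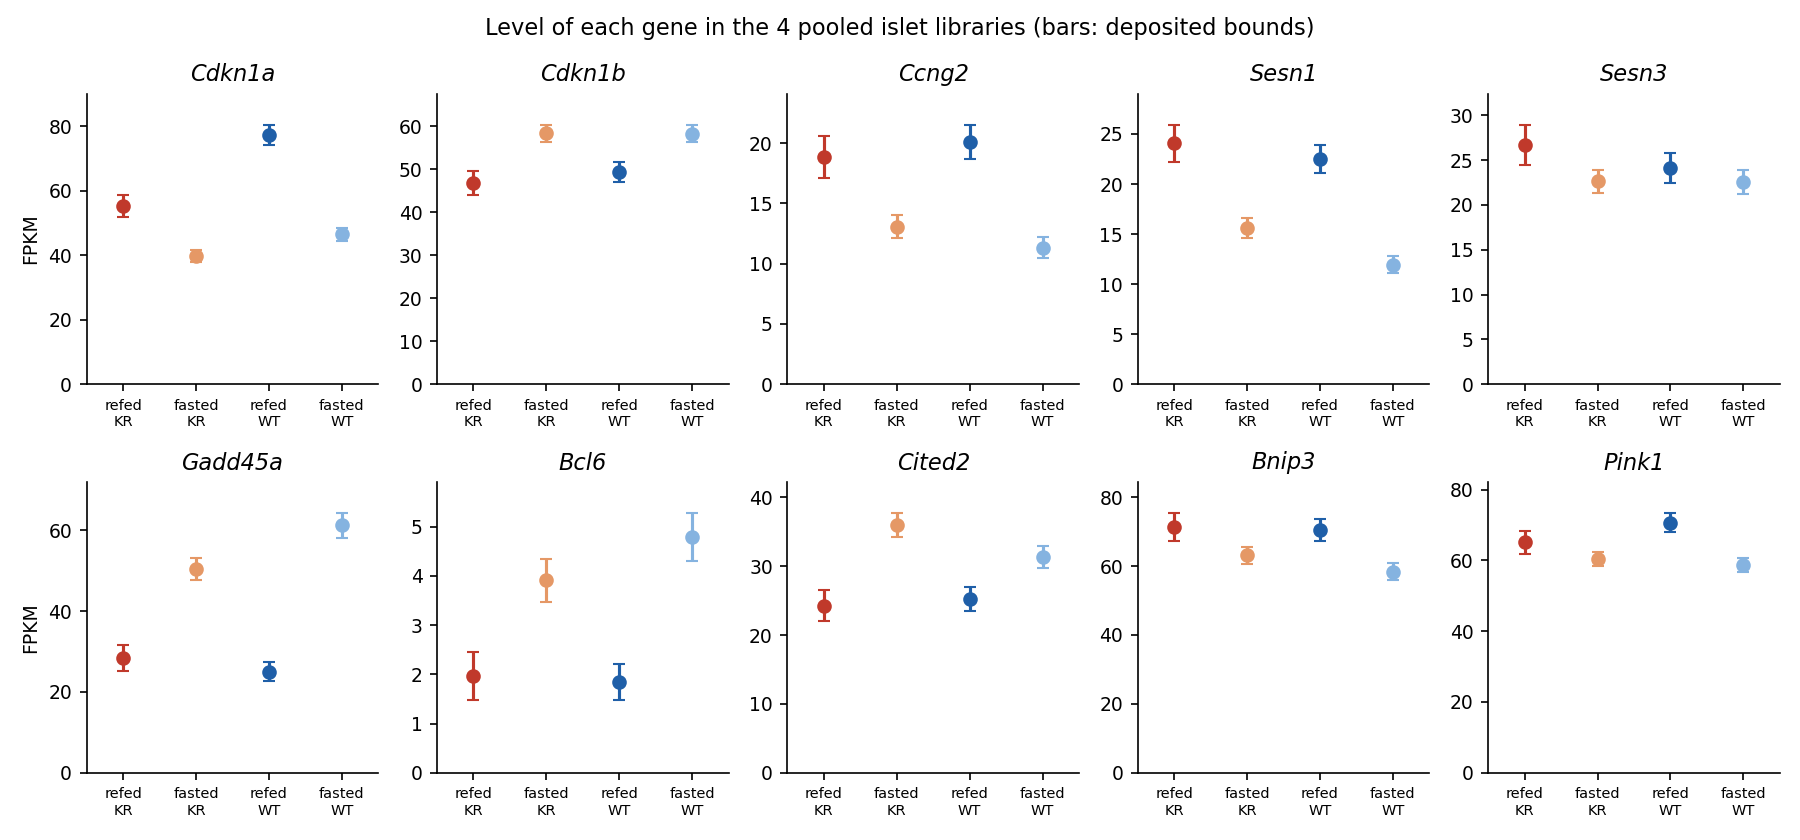
FPKM of the 10 genes in the refed KR, fasted KR, refed WT and fasted WT libraries (1 pooled library each, linear axes from 0, bars are the deposited bounds). Sesn1, Ccng2 and Cdkn1a stand higher in the refed library of each genotype, and Gadd45a, Bcl6, Cited2 and Cdkn1b stand lower.

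Setting refed against fasted islets addresses how these genes follow feeding, which is known to raise insulin and so to keep FoxO factors out of the nucleus. The members did not move as a block. After refeeding 5 rose, 4 fell and 1 did not pass. The test was limma with a mean-variance trend on log2(FPKM + 1), in an additive model of feeding state and genotype over the 4 libraries, with Benjamini-Hochberg adjusted p-values over all genes tested and a threshold of 0.05. Of all 11953 genes, 56.9% passed this test, 27.7% higher and 29.2% lower in refed islets, so that a call of 9 of 10 members is to be read beside that share; at an unadjusted p under 0.05 there were 10 members, beside 62.3% of all genes. The median fitted change of the members was 0.17 on the log2 scale, beside -0.01 over all genes tested. The model has 1 residual degree of freedom per gene and a prior worth 7.58 more from other genes. With 1 library per group, that residual is the difference between the refeeding ratios of KR and WT. The p-values thus set each change against that difference and the prior. They measure no spread between replicate libraries or between mice.

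The CDK inhibitors went in opposite directions. Cdkn1a encodes p21, which blocks cyclin-CDK complexes and is known as a target of p53 as well as of FoxO factors; it lies on chromosome 17 at 29227931 to 29237667 (mm9, as all gene positions here). Its FPKM was 55.1 in refed KR and 39.7 in fasted KR, with 77.3 in refed WT and 46.5 in fasted WT. Both refed libraries lay above both fasted ones. It rose by 0.59 ± 0.07 on the log2 scale (SE, 4 libraries; limma adjusted p = 0.000232). Cdkn1b encodes p27, a CDK inhibitor that restrains beta-cell division, on chromosome 6 at 134870419 to 134875543. It stood at an FPKM of 46.9 in refed KR and 58.4 in fasted KR, with 49.4 in refed WT and 58.3 in fasted WT, again without overlap between feeding states but with the refed libraries lower. It fell by 0.27 ± 0.06 (limma adjusted p = 0.00482).

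Ccng2 encodes cyclin G2, an unusual cyclin that is known to hold cells out of division, on chromosome 5 at 93696599 to 93705257. It stood at an FPKM of 18.9 in refed KR and 13.1 in fasted KR, with 20.1 in refed WT and 11.3 in fasted WT, so the refed libraries stood well above the fasted ones. It rose by 0.64 ± 0.08 (SE; limma adjusted p = 0.000332).

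The sestrins are stress-induced proteins that restrain mTORC1 and oxidants. Sesn1, on chromosome 10 at 41530380 to 41628242, reached an FPKM of 24.1 in refed KR and 15.6 in fasted KR, with 22.5 in refed WT and 11.9 in fasted WT. Every refed library was above every fasted one. It rose by 0.73 ± 0.08, the highest fitted change of the members (SE; limma adjusted p = 0.000147). Sesn3, on chromosome 9 at 14080745 to 14130578, had FPKM values of 26.7 in refed KR and 22.6 in fasted KR, with 24.1 in refed WT and 22.6 in fasted WT. The refed libraries were the higher ones, but its fitted change of 0.16 ± 0.07 did not pass (limma adjusted p = 0.0766). It passed in 1 of 8 alternatives, limma-voom on implied fragments, whose adjusted p of 0.0416 was the lowest of a range up to 0.135.

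Gadd45a, a small acidic protein gene of the growth arrest and DNA repair response, lies on chromosome 6 at 66985090 to 66987401. It stood at an FPKM of 28.3 in refed KR and 50.5 in fasted KR, with 25.0 in refed WT and 61.2 in fasted WT. Both refed libraries held about the same low level, and the fasted ones were higher and further apart. It fell by 1.04 ± 0.10 on the log2 scale (SE; limma adjusted p = 6.25e-05), further than any other member on this scale, though Bcl6 fell further with a pseudocount of 0.1 and in limma-voom. The row of an overlapping gene, E230016M11Rik, which GENCODE vM21 puts on the opposite strand, was far lower, at an FPKM of 0.638 in refed KR and 0.366 in fasted KR, with 0.655 in refed WT and 0.667 in fasted WT. The labels do not say whether strand was used in counting, so reads of the 2 genes cannot be told apart where they overlap. Genes on the opposite strand that have no row in the files also overlap exons of Cdkn1a, Bcl6 and Bnip3 in that annotation, and 2 miRNA genes lie within Pink1.

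Bcl6 encodes a transcriptional repressor best known from germinal centre B cells, on chromosome 16 at 23965138 to 23988698. It stood at an FPKM of 1.96 in refed KR and 3.91 in fasted KR, with 1.84 in refed WT and 4.79 in fasted WT. Both refed libraries lay below both fasted ones. It fell by 0.88 ± 0.12 (SE; limma adjusted p = 0.000391). Cited2 encodes a coregulator that competes with hypoxia-inducible factor for the acetyltransferases CBP and p300, on chromosome 10 at 17443034 to 17445480. It stood at an FPKM of 24.2 in refed KR and 35.9 in fasted KR, with 25.2 in refed WT and 31.3 in fasted WT. It fell by 0.43 ± 0.08 (limma adjusted p = 0.00165), also without overlap between the feeding states.

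The mitochondrial pair changed least among the members that passed. Bnip3, on chromosome 7 at 146082519 to 146101189, rose by 0.22 ± 0.06 (SE; limma adjusted p = 0.0134), and Pink1, on chromosome 4 at 137869325 to 137882211, by 0.18 ± 0.06 (limma adjusted p = 0.0360). Both were higher in each refed library than in either fasted one, but the deposited bounds of Pink1 overlapped between refed and fasted KR. The call of Bnip3 was lost in limma without trend, at the highest adjusted p of its alternatives, 0.0506, from a lowest of 0.000513. The call of Pink1 was lost there, at an adjusted p of 0.0971, and with no filter on low values, at 0.0924, in a range from 0.00152.

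Refeeding was next set out within each genotype, where 2 single libraries are compared and no test is possible. The intervals given are for counting error only and are taken from the deposited bounds, as the log2 ratio of FPKM + 1 plus or minus 2 standard errors. All 10 members had the same sign of ratio in KR and in WT, though the interval of Sesn3 in WT, -0.03 to 0.22, held 0. The share of all genes tested with the same sign was not counted, so this count cannot be read as particular to the members. The bounds of the refed and fasted libraries lay apart for 9 members in KR, 5 higher and 4 lower in refed islets, and for 9 in WT, 5 higher and 4 lower. Over all genes tested, bounds lay apart in 52.1% in KR (23.1% higher, 29.0% lower) and in 61.1% in WT (30.2% higher, 30.9% lower). The member whose bounds overlapped was Pink1 in KR and Sesn3 in WT. At least 2-fold lower in refed WT were Gadd45a, at a ratio of -1.26, and Bcl6, at -1.03, beside 2.40% of all genes, and no member was that much higher, beside 1.11%, while no member reached 2-fold in KR, where 1.75% of all genes were that much lower and 0.577% that much higher. The ratio of Bcl6 in WT was -1.33 with a pseudocount of 0.1 and -0.52 with one of 5, where it is no longer 2-fold.

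In 7 members the ratio was smaller in size in KR than in WT, namely in Cdkn1a, Ccng2, Sesn1, Gadd45a, Bcl6, Bnip3 and Pink1, as it was in 58.0% of all genes tested. For Gadd45a the log2 ratio was -0.81 in KR (counting interval -0.99 to -0.63) and -1.26 in WT (-1.41 to -1.11). For Ccng2 it was 0.50 in KR (0.34 to 0.65) and 0.78 in WT (0.64 to 0.92). For Sesn1 it was 0.59 in KR (0.45 to 0.73) and 0.86 in WT (0.73 to 0.99). Each of these genes thus had the smaller step in the KR pair. Cdkn1a had 0.46 in KR (0.35 to 0.58) and 0.72 in WT (0.63 to 0.81), whereas Cited2 had the larger ratio in size in KR, at -0.55 (-0.70 to -0.40), against -0.30 in WT (-0.42 to -0.18).

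**Figure D2:**
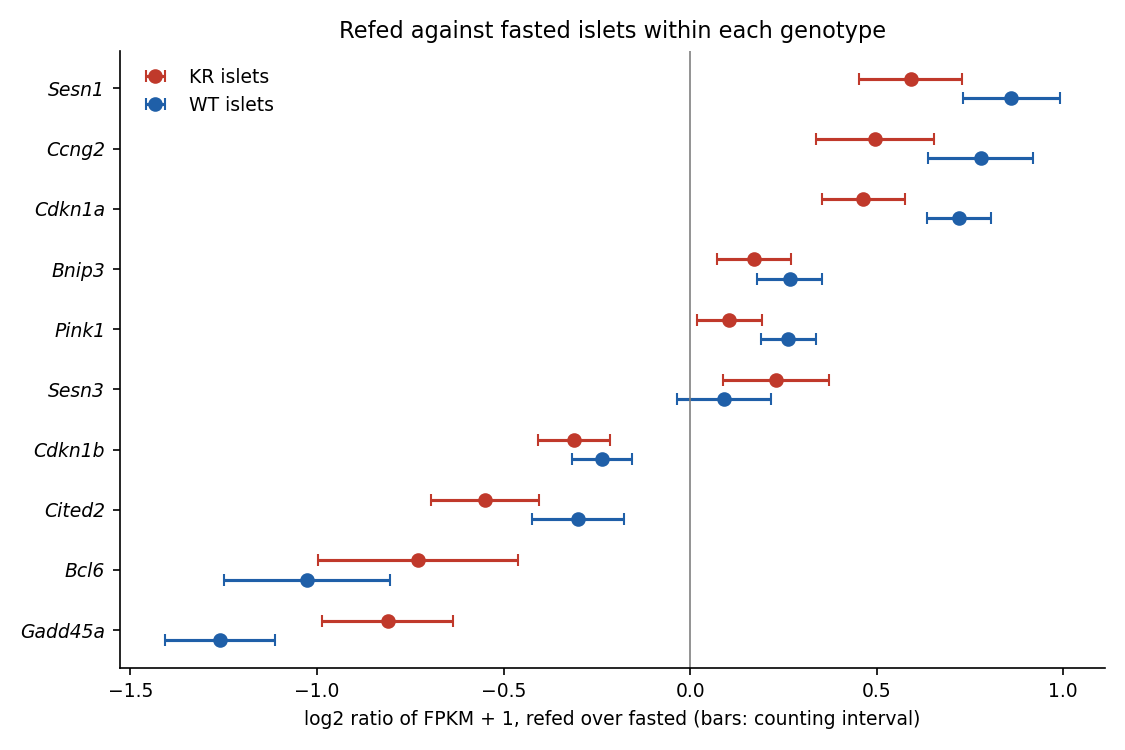
Log2 ratio of FPKM + 1 of the refed over the fasted library in KR and in WT islets for the 10 genes, with counting intervals from the deposited bounds (1 pooled library per group). Gadd45a lies lowest, at -0.81 in KR and -1.26 in WT, and Sesn1 highest, at 0.59 in KR and 0.86 in WT.

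The difference between the refeeding ratios, KR minus WT, was 0.45 for Gadd45a (counting interval 0.22 to 0.68), -0.28 for Ccng2 (-0.49 to -0.07), -0.27 for Sesn1 (-0.46 to -0.08), -0.26 for Cdkn1a (-0.40 to -0.12), -0.25 for Cited2 (-0.44 to -0.06) and -0.16 for Pink1 (-0.27 to -0.04). In these 6 members the interval left out 0, as it did in 22.4% of all genes tested. Counting intervals narrow with fragment number, and the members other than Bcl6 were mostly well expressed. Their FPKM lay above that of 62.2% to 89.2% of genes tested in refed KR and of 43.8% to 87.2% in fasted WT. The share over all genes is thus not a like-for-like background, and the same holds for the shares with bounds apart. The other 4 intervals held 0, with differences of 0.30 in Bcl6, 0.14 in Sesn3, -0.10 in Bnip3 and -0.08 in Cdkn1b. The median size of the difference was 0.25 over the members, beside 0.11 over all genes. A difference as large as that of Gadd45a in either direction was found in 4.27% of genes tested, and one as large as that of Ccng2 in 13.3%. With 1 pooled library per group, these differences have no error beyond counting and were not tested. They are also the residual of the additive model, so the standard errors and adjusted p-values of limma rest on them and on the prior.

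Setting KR against WT islets addresses whether the transcript levels differ between the genotypes, and it uses the same 4 libraries as the comparison of feeding states. The state of the FoxO1 protein was not measured. In the same additive limma model 0 of the 10 members passed, beside 1.26% of all genes tested. These were 72 genes higher in KR (0.602%) and 79 lower (0.661%), or 76 and 51 after rescaling by the median of ratios. At an unadjusted p under 0.05 there were 2 members, Cdkn1a and Sesn1, beside 16.4% of all genes, and limma-voom on implied fragments called 1 lower and 1 higher, the same pair. The median fitted difference was 0.01 over the members and -0.04 over all genes.

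Cdkn1a was the member furthest from 0. Its FPKM was 55.1 in refed KR and 77.3 in refed WT, and 39.7 in fasted KR and 46.5 in fasted WT, so that the KR library was the lower one in both feeding states, with bounds apart in each. The fitted difference was -0.35 ± 0.07 (SE, 4 libraries) and did not pass (limma adjusted p = 0.0669). Over 8 alternatives its adjusted p ran from 0.000659 to 0.419 and 3 of them called it, namely limma-voom, a robust prior and a filter at a mean FPKM of 5. Sesn1 had a fitted difference of 0.23 ± 0.08 (adjusted p = 0.228), which passed in limma-voom alone, at 0.0122 in a range up to 0.479. It was higher in fasted KR, at 15.6, than in fasted WT, at 11.9, with bounds apart, and its bounds overlapped between refed KR, at 24.1, and refed WT, at 22.5.

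Between the refed libraries the bounds of 1 member lay apart, Cdkn1a, lower in KR, beside 15.3% of all genes, 3.51% higher and 11.8% lower. Between the fasted libraries they lay apart for 4 members, beside 22.9%: Sesn1 and Cited2 were higher in KR, beside 7.47% of all genes, and Cdkn1a and Gadd45a lower, beside 15.5%. Cited2 stood at 35.9 in fasted KR and 31.3 in fasted WT, a log2 ratio of 0.19 (counting interval 0.09 to 0.29). Gadd45a stood at 50.5 in fasted KR and 61.2 in fasted WT, a ratio of -0.27 (-0.38 to -0.17). In the refed pair the ratio of Gadd45a was 0.18 (-0.03 to 0.38), so its sign was not the same, but that interval held 0. Cdkn1b and Sesn3 hardly differed in the fasted pair, at ratios of 0.00179 (-0.07 to 0.07) and 0.000843 (-0.11 to 0.12). No member reached a 2-fold difference between genotypes, beside 0.167% of all genes higher and 0.201% lower in the refed pair and 0.134% higher and 0.109% lower in the fasted pair.

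**Figure D3:**
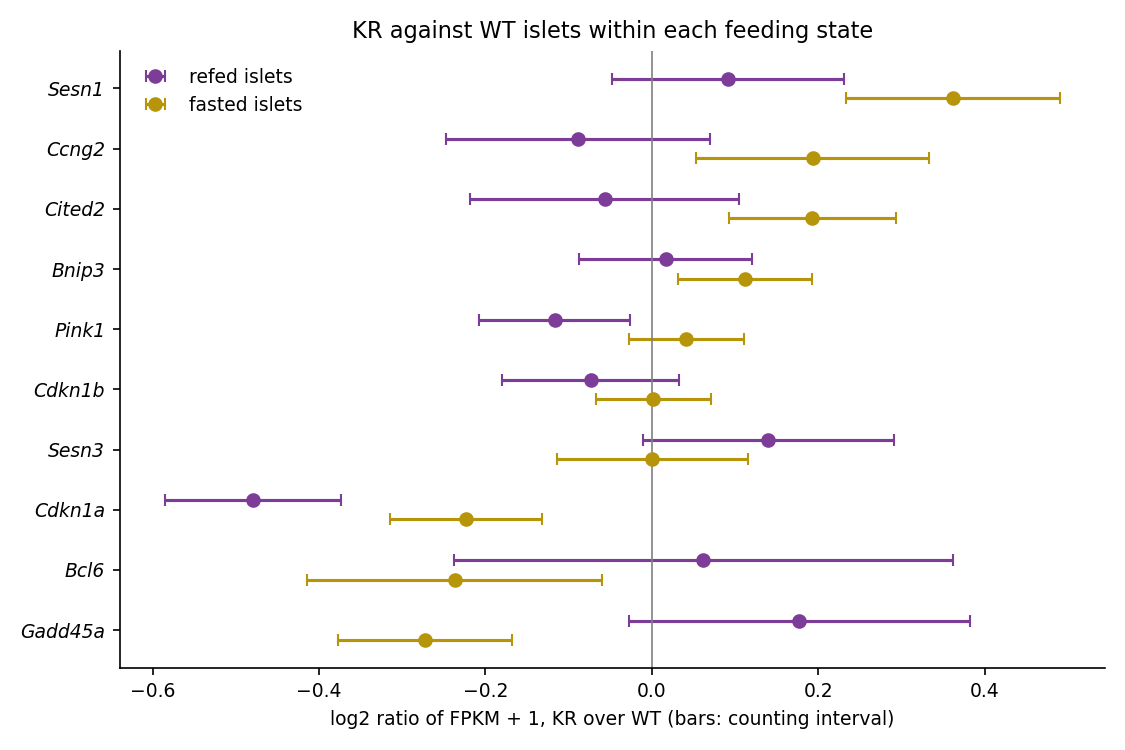
Log2 ratio of FPKM + 1 of the KR over the WT library in refed and in fasted islets for the 10 genes, with counting intervals from the deposited bounds (1 pooled library per group). Cdkn1a lies left of 0 in both states, at -0.48 refed and -0.22 fasted, and Sesn1 lies furthest right in the fasted state, at 0.36.

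The levels of the FoxO genes themselves stand beside these values. Foxo1, whose product is the one known to be altered in KR, had an FPKM of 13.8 in refed KR and 14.1 in fasted KR, against 18.8 in refed WT and 17.4 in fasted WT; its fitted difference of -0.35 ± 0.07 did not pass (limma adjusted p = 0.0667; passed in 3 of 8 alternatives, range 0.000311 to 0.419). A change of the protein need not alter the transcript, so this level checks nothing about the labels. Foxo4 fell by 0.34 ± 0.08 after refeeding (adjusted p = 0.00709; lost with no filter on low values, at 0.0504, the highest of its alternatives, whose lowest was 0.00151), and Foxo6 by 0.54 ± 0.08 (adjusted p = 0.000447). Foxo1 and Foxo3 did not pass for feeding, at 0.03 ± 0.07 and -0.20 ± 0.10. For Foxo3 the refeeding ratio was -0.35 in WT (counting interval -0.53 to -0.18), with bounds apart, at an FPKM of 6.75 refed and 8.89 fasted. In KR it was -0.04 (-0.24 to 0.16). The KR minus WT difference was 0.31 (0.05 to 0.57), one reached in size by 10.8% of genes tested, and was not tested.

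The close relatives of the members allow the families to be compared. Of 13 relatives 12 were tested; after refeeding 5 rose, 3 fell and 4 did not pass, with a median fitted change of 0.21. These 8 calls of 12 stand beside 56.9% of all genes tested. Cited1, a coregulator gene, was below the filter, at an FPKM of 0.479 or less. Among the sestrins the third gene, Sesn2, fell by 1.45 ± 0.06 (adjusted p = 1.89e-06), the opposite direction to Sesn1. The FPKM of Sesn2 was 26.9 in refed KR and 74.8 in fasted KR, with 26.5 in refed WT and 75.1 in fasted WT. Refed islets thus held the 3 sestrins at nearly equal FPKM, between 22.5 and 26.9, whereas in fasted islets Sesn2 was over 3-fold above Sesn3.

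Of the other CDK inhibitors, Cdkn2b, which encodes p15 and acts on CDK4 and CDK6, fell by 0.68 ± 0.08 (adjusted p = 0.000211), at an FPKM of 7.81 in refed KR and 12.2 in fasted KR, with 6.77 in refed WT and 12.2 in fasted WT. Cdkn2a, the gene of p16 and p19Arf, fell by 0.38 ± 0.14 at a low level (adjusted p = 0.0398), a call lost with no filter and in limma-voom (range over alternatives 0.0193 to 0.0887). Cdkn2c, the p18 gene, rose by 0.46 ± 0.10 (adjusted p = 0.00528; lost with no filter, at 0.0752, the highest of a range from 0.000872), and Cdkn2d, which encodes another inhibitor of this class, by 0.34 ± 0.07 (adjusted p = 0.00398). The CDK inhibitor genes were therefore split by fitted change, Cdkn1a, Cdkn2c and Cdkn2d being higher and Cdkn1b, Cdkn2a and Cdkn2b lower in refed islets, while Cdkn1c, at 0.24 ± 0.15, did not pass (adjusted p = 0.193; passed in 1 of 7 alternatives, limma without trend). Cdkn2a rested on 14 implied fragments in refed KR and 9 in refed WT. The counting interval of its refeeding ratio held 0 in both genotypes, as did that of Cdkn2c in KR. In the Gadd45 family Gadd45g rose by 0.26 ± 0.08 (adjusted p = 0.0194; lost with no filter, at 0.0901, the highest of a range from 0.0105) where Gadd45a fell, and Gadd45b did not pass, at 0.15 ± 0.13. For Gadd45g the refeeding ratio was 0.15 in KR, with a counting interval that held 0 (-0.09 to 0.39), and 0.38 in WT (0.17 to 0.59). Ccng1, the other G cyclin, rose by 0.28 ± 0.06 (adjusted p = 0.00285) and Bnip3l, a mitophagy receptor gene related to Bnip3, by 0.29 ± 0.07 (adjusted p = 0.00520). Bcl6b and Cited4 did not pass, at 0.18 ± 0.09 and -0.10 ± 0.10.

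**Figure D4:**
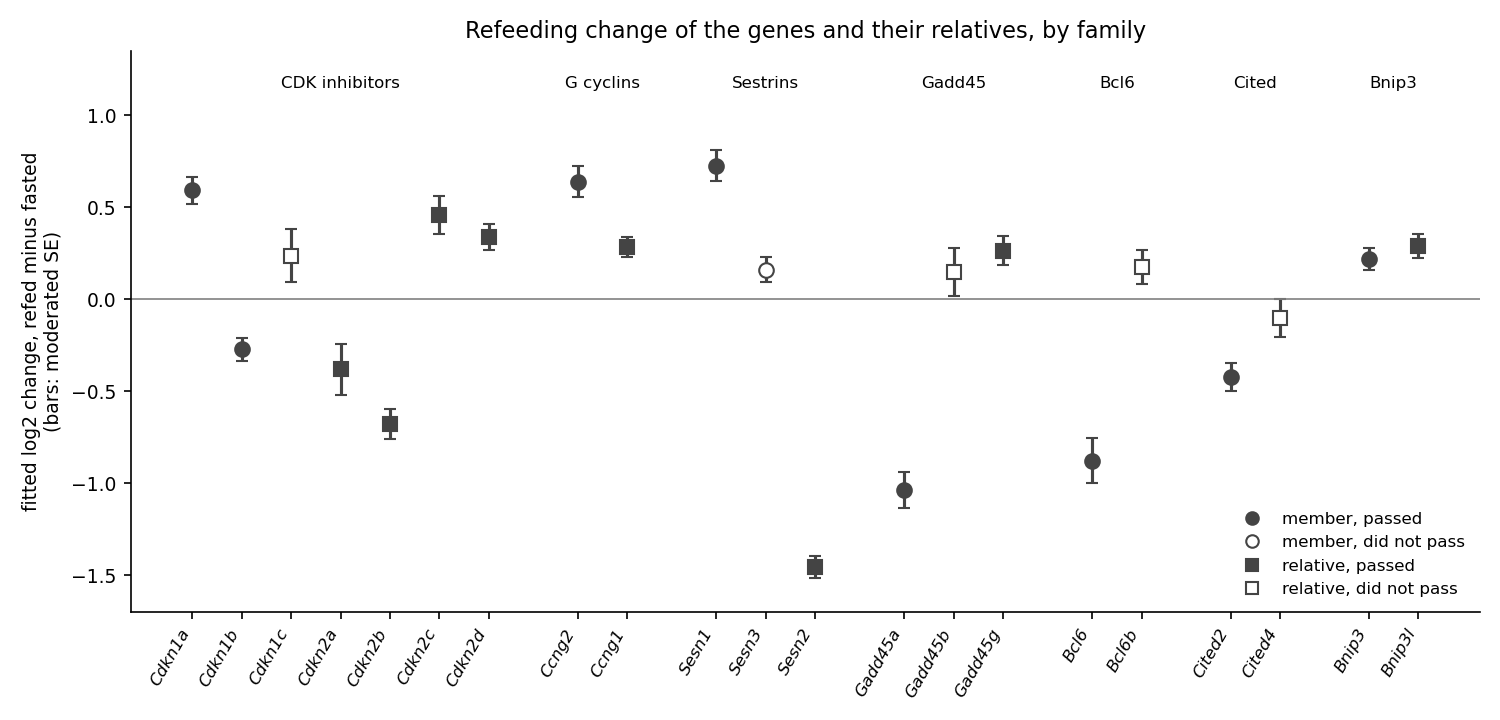
Fitted log2 change of the 9 members that have a tested relative and of the 12 tested relatives between refed and fasted islets, by family (limma, additive model over 4 libraries, bars are moderated SE, filled symbols passed at an adjusted p of 0.05). Sesn2 at -1.45 and Sesn1 at 0.73 mark the ends among the sestrins.

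Between genotypes 1 of the 12 relatives passed. Ccng1, a p53 target like Cdkn1a, had an FPKM of 112 in refed KR and 145 in refed WT, and 94.1 in fasted KR and 116 in fasted WT, and fell by 0.33 ± 0.06 in KR (limma adjusted p = 0.0335). Its call was lost with a pseudocount of 5, with no filter on low values and without trend, and its adjusted p ran from 1.47e-05 to 0.419 over 8 alternatives. Cdkn2a, at a difference of 0.63 ± 0.14, did not pass (adjusted p = 0.0723; passed with a robust prior, range 0.0448 to 0.419).

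Of 27 other genes known as FoxO targets 20 were tested; 6 rose after refeeding, 9 fell and 5 did not pass, with a median fitted change of -0.12. Over all genes tested, 27.7% rose and 29.2% fell, and the lists that follow are to be read beside the same shares. The highest were Txnip, a thioredoxin inhibitor gene that glucose induces, by 1.78 ± 0.07, the death ligand gene Tnfsf10, by 0.67 ± 0.13, and Trib1, a pseudokinase gene, by 0.59 ± 0.08. The translation repressor gene Eif4ebp1 fell by 1.76 ± 0.06, Sesn2 by 1.45 and the catalase gene Cat by 0.92 ± 0.09. Pck1, Igfbp1, Trim63 and Fasl, which encode a gluconeogenic enzyme, a liver growth factor binding protein, a muscle ubiquitin ligase and a lymphocyte death ligand, were listed at 0 in every library. Between genotypes Txnip rose by 0.42 ± 0.07 in KR (adjusted p = 0.0289, called in 5 of 8 alternatives), Eif4ebp1 fell by 0.37 ± 0.06 (adjusted p = 0.0278, called in 6 of 8) and 18 did not pass.

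Since Cdkn1a, Gadd45a and Sesn1 are also known as p53 targets, and Bnip3 and Cited2 as hypoxia targets, those lists were counted too. The lists also hold the genes of the factors themselves, Trp53 and Hif1a. Both are counted below among the genes that fell after refeeding, by 0.29 ± 0.07 and 0.20 ± 0.06. Of 15 tested genes of the p53 list other than the members, 5 rose after refeeding, among them the adhesion gene Perp, by 0.64 ± 0.09, the antiproliferative gene Btg2, by 0.59 ± 0.06, and the death receptor gene Eda2r, by 0.45 ± 0.13. As many, 5, fell, with Sesn2, the BH3-only death gene Bbc3, by 0.84 ± 0.09, and the RNA-binding protein gene Zmat3, by 0.40 ± 0.08, the lowest, and the median was 0.08. Between genotypes 2 fell, Ccng1 and the death effector gene Bax, by 0.31 ± 0.05 (adjusted p = 0.0401, called in 4 of 8 alternatives), and 0 rose, with a list median of -0.13 beside -0.04 over all genes. Of 15 tested genes of the hypoxia list 4 rose after refeeding, led by Ankrd37, by 0.40 ± 0.14 (called in 5 of 8 alternatives), Bnip3l and the glycolytic gene Pgk1, by 0.24 ± 0.06. Another 5 fell, with the glucose transporter gene Slc2a1, by 0.93 ± 0.14, the prolyl hydroxylase gene Egln1, by 0.54 ± 0.07, and the angiogenic factor gene Vegfa, by 0.45 ± 0.06, the lowest. None of the genes of the hypoxia list passed between genotypes in limma, with 4 at an unadjusted p under 0.05.

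Of 14 tested mitophagy genes other than the members 3 rose after refeeding, namely Bnip3l, Park7, an oxidant-sensing chaperone gene, by 0.28 ± 0.05, and the kinase gene Tbk1, by 0.25 ± 0.07, a call lost with no filter. There were 6 that fell, with the adaptor genes Optn, by 1.16 ± 0.08, and Sqstm1, by 0.63 ± 0.05, and the protease gene Htra2, by 0.59 ± 0.09, the lowest; Sqstm1, which encodes p62, stood at an FPKM of 495 in refed KR and 755 in fasted KR, with 547 in refed WT and 861 in fasted WT. None passed between genotypes in limma, with 3 at an unadjusted p under 0.05. Bnip3 and Pink1 were thus higher in refed islets while the most changed adaptors of the pathway were lower.

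Of 14 tested genes of the G1 cell cycle machinery 3 rose, 3 fell and 8 did not pass after refeeding. They hold cyclin, CDK, E2F and retinoblastoma family genes with Skp2 and Cks1b, and neither of the tested CDK genes, Cdk2 and Cdk4, passed. Ccnd2, the main D cyclin gene of mouse beta cells, fell by 0.73 ± 0.06, the CDK adaptor gene Cks1b by 0.32 ± 0.07 and Rb1, the retinoblastoma gene, by 0.23 ± 0.08 (called in 6 of 8 alternatives). The E2F factor gene E2f2, by 0.42 ± 0.16 (called in 4 of 7), and the cyclin genes Ccne2, by 0.40 ± 0.12 (called in 6 of 7), and Ccnd1, by 0.23 ± 0.06 (called in 6 of 8), rose. Cks1b also fell in KR, by 0.47 ± 0.07 (adjusted p = 0.0212, called in 6 of 8), the single call of this list between genotypes. Of 16 markers of dividing cells 7 passed the filter on low values, of which Mcm5, a replication helicase gene, rose by 0.47 ± 0.14 and Pcna, the replication clamp gene, by 0.39 ± 0.06 after refeeding, and 0 fell.

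Among the members 2, Gadd45a and Bcl6, varied at least 2-fold on the log2(FPKM + 1) scale over the 4 libraries. Sesn1 fell just short on that scale, with a range of 0.95, while its FPKM ran from 11.9 to 24.1. Patterns were compared by the Euclidean distance between log2 values centred over the 4 libraries. The genes most like Gadd45a and Bcl6 were sought among 8509 genes averaging an FPKM of 5 or more, without small RNAs and clone-type names. For Gadd45a these were Mafg, a small Maf factor gene, at a distance of 0.038, Bhlhe40, a clock-linked repressor gene, at 0.068, and Trim46, at 0.069. Mafg, for example, stood at an FPKM of 11.6 in refed KR and 20.6 in fasted KR, with 10.3 in refed WT and 25.4 in fasted WT. For Bcl6 they were Fam108c, at 0.023, Pacsin2, at 0.049, and Foxn2, at 0.051. With 4 libraries many genes share a pattern by this measure, and it describes these libraries only.

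The libraries carried the hormone genes that define islets, and markers of the cells that islet preparations hold moved with both comparisons. Their part in the values above was not tested. The 9 beta-cell markers measured in every library summed to an FPKM of 81118 in refed KR and 55505 in fasted KR. For WT the sum was 57815 refed and 40795 fasted. Most of each sum was Iapp, at 66975 in refed KR and 46126 in fasted KR. For WT Iapp stood at 52784 refed and 35463 fasted. The sums thus say little about the other markers. Of the 9, 6 rose after refeeding and 6 rose in KR. Ins1, Mafa and Nkx6-1 did not pass after refeeding, at fitted changes of 0.15, -0.15 and -0.14. Ins1 was higher in refed KR, at 12196, than in fasted KR, at 7966, but lower in refed WT, at 3498, than in fasted WT, at 4320. Ins2 had no usable value in fasted KR. Of 5 tested endothelial markers 3 fell and 1 rose after refeeding, and the 8 listed summed to 15.2 in refed KR and 18.4 in fasted KR, and to 16.9 in refed WT and 25.6 in fasted WT. Of 7 tested stellate cell markers 5 fell and 1 rose, and the 9 listed summed to 34.3 in refed KR and 41.1 in fasted KR, and to 26.4 in refed WT and 39.9 in fasted WT. The refed library was thus the lower one in both genotypes for both of these cell types.

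Of 10 tested markers of macrophages and antigen presenting cells 4 fell after refeeding and 3 rose in KR, with sums of 351 in refed KR and 422 in fasted KR, and of 336 in refed WT and 390 in fasted WT. The 3 that rose in KR were the antigen presentation genes Cd74, H2-Aa and H2-Ab1. The other 7 did not pass, with differences below 0 for Lyz2, Cd68 and Emr1 and above 0 for C1qa, C1qb, C1qc and Csf1r. The 7 lymphocyte markers summed to 15.2 in refed KR and 22.7 in fasted KR, and to 9.67 in refed WT and 9.31 in fasted WT, and 2 of 2 tested rose in KR. Of 6 adipocyte markers Adipoq, Lep, Plin1 and Retn were listed at 0 in every library, and the 2 tested, Fabp4 and Lpl, fell in KR, with sums of 141 in refed KR and 134 in fasted KR, and of 182 in refed WT and 178 in fasted WT. Alpha, delta and PP, duct and acinar markers had 0 calls between genotypes in limma, with 5 at an unadjusted p under 0.05, and of the neuron and glia markers 1 rose in KR, Th. After refeeding 3 of 5 tested alpha markers passed, 2 of 4 delta and PP markers, 2 of 4 duct markers, 1 of 1 acinar marker and 2 of 4 neuron and glia markers. In pooled islets, fewer cells of a type and less RNA per cell cannot be told apart.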

How the data were processed

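The tools named for the reads are TopHat2 2.0.4, on mm9, and bcl2fastq 1.8.4, per the submitters' processing notes; the program that made the values is not given in the sources used here. The authors deposited FPKM with bounds and a status per gene, per the file headers. Rows of 1 symbol were summed and values without status OK were missing. A deposited start lies 1 base before the gene, since end minus start equalled the RefSeq length in 7 of 10 members, so 1 was added.

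Standard errors are the distance from FPKM to the upper bound over 2, and implied fragments are the squared ratio of FPKM to that error. Fits used limma 3.58.1 in R 4.3.3 with a pseudocount of 1. They were also run on simulated data with independent noise and few changed genes, which cannot give the error rate in these libraries. Fold changes are on the log2(FPKM + 1) scale and understate changes of low genes.

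The members and lists were chosen with earlier results of these data known. Genes named are all members and relatives, list genes called between genotypes, and the 3 highest and 3 lowest calls of each list after refeeding, plus the 3 genes nearest in pattern to a member that varied 2-fold. Alternatives were pseudocounts of 0.1 and 5, other filters and priors, rescaling, no trend and limma-voom.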

Additional observations from a re-analysis of the deposited data

Results flagged for a closer look

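In 6 members the KR against WT ratio had opposite signs in the refed and the fasted pair, with 1 pooled library per group and no test of the difference. The share of all genes with opposite signs was not counted. In none of these 6 members did the counting intervals of both pairs leave out 0, so no change of sign is resolved. The refed minus fasted difference of that log2 ratio is by definition the KR minus WT difference between the refeeding ratios given above. It was 0.45 for Gadd45a, 0.30 for Bcl6, -0.28 for Ccng2, -0.25 for Cited2, -0.16 for Pink1 and -0.0753 for Cdkn1b. For Gadd45a, Ccng2, Cited2 and Pink1 the counting interval of the difference left out 0, and for Bcl6 and Cdkn1b it held 0. The refed KR library was the shallowest, at a depth of 0.418 relative to fasted WT, and its part in these differences was not tested.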

How the results depend on the processing

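The 4 members that fell after refeeding were counted as 4 in 7 of 8 alternatives and as 3 at a mean FPKM of at least 5, where Bcl6 is not tested. The count of 5 that rose became 3 in limma without trend, 4 with no filter on low values and 6 in limma-voom. Between genotypes the count of 0 members lower became 1 at a mean FPKM of at least 5, with a robust prior and in limma-voom, and that of 0 higher became 1 in limma-voom; the cause was not tested. Over all genes, 72 higher and 79 lower calls in KR became 0 and 0 with no filter on low values, 3 and 2 without trend and 394 and 332 in limma-voom, and the lower calls became 45 with a pseudocount of 5, 156 at a mean FPKM of at least 5, 51 after rescaling and 130 with a robust prior. Differences near 0 turned in sign for Cdkn1b, to 0.0077, and Pink1, to 0.0082, in limma-voom, and for Cited4, to -0.00062, with a pseudocount of 0.1. A pseudocount of 5 moved the ratio of Bcl6 to -0.36 in KR and -0.52 in WT. Leaving out a library leaves the additive model without residual degrees of freedom, so the ratios of single pairs stand in its place. No paired analysis was possible because each group has 1 library and the labels give no replicate numbers. Intervals cover counting error only, which was widest for Bcl6.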
